A study of Homo sapiens with 26 samples.

Results

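Lyn11 is the membrane-anchoring stretch of the Src-family kinase LYN, and it was used here to hold APEX2 against the inner leaflet of the plasma membrane of HEK293T cells, an established line from human embryonic kidney with the SV40 large T antigen. The libraries titled Lyn11-APEX (labeled) and Lyn11-Control (control), 4 of each, were compared. They make up 8 of the 26 libraries of the series, whose other 18 came from Lck, CD28 and PDGFR constructs. A gene was tested when its log2 FPKM (fragments scaled by gene length and library size, on a log2 scale) was above 0 in at least 3 of these 8 libraries, which left 20325 of 25745 genes.

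Both groups were HEK293T cells that stably express the Lyn11 APEX2 fusion. The labels give labeled and control libraries the same steps, namely, 18 to 24 h after plating, a 30 min incubation with biotin-phenol, a 1 min pulse of hydrogen peroxide at 1 mM, then TRIzol extraction and streptavidin beads. The design text calls the controls unlabeled, but the sources used here do not give the step they lacked. They also do not give whether the cells were 1 clone or a pool, or whether the libraries keep strand, so reads of genes that overlap on opposite strands cannot be told apart. The design text speaks of 3 biological replicates a group, whereas the titles number 4. The level of LYN mRNA does not check the construct, since the sources used here do not give its coding sequence. Of 10 listed markers of HEK293T, 9 were measured and 8 were high enough to be tested. Their means ran from -0.91 log2 FPKM up to VIM at 5.95, with NEFL at 4.34 and LIN28B at 4.28. Of 6 listed markers of blood cells 3 were measured, and the only 1 tested had a mean of 1.54 and a difference of -0.16. Of the markers of fibroblasts and epithelial carcinoma cells, only COL1A1 and CDH1 were high enough to be tested, and their differences were 0.13 and 0.04 (adjusted p = 0.9998 in each, limma).

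APEX2 is a peroxidase that turns biotin-phenol into short-lived radicals, which tag nearby protein and RNA and let streptavidin retrieve them. The inner leaflet carries lipid-anchored kinases and small G proteins and faces the cytosol. Hydrogen peroxide is also a signalling molecule, and immediate early genes such as EGR1 and FOS are transcribed within minutes of many stimuli without new protein synthesis. The spliceosome is built from U1, U2, U4, U5 and U6 small nuclear RNAs, of which U6 is made by RNA polymerase III and the others by RNA polymerase II. U1, U2, U4 and U5 pass through the cytoplasm during assembly, where a ring of Sm proteins is placed on them.

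Because U1 genes made up the largest group of genes that rose, 5 of them are shown first, from GENCODE 29 transcripts on GRCh38. The first 11 bases, which hold the stretch that pairs with 5′ splice sites, and AATTTGTGG, the binding site of the Sm ring, are in capitals where a gene has them exactly as RNU1-1 does. RNU1-1 stands for 8 measured genes of identical sequence, RNVU1-27 and RNVU1-15 were the highest in level, RNVU1-4 rose and differs at many positions, and RNU1-103P did not pass the test.
RNU1-1: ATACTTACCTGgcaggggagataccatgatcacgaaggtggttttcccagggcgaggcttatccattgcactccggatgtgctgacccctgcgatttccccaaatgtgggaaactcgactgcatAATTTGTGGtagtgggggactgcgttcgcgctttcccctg
RNVU1-27: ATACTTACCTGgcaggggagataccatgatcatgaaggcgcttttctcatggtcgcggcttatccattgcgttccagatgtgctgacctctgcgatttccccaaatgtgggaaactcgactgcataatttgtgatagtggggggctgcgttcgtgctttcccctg
RNVU1-15: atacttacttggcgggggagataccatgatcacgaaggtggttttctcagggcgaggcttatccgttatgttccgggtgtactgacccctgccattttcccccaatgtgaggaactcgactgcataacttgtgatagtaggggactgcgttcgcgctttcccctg
RNVU1-4: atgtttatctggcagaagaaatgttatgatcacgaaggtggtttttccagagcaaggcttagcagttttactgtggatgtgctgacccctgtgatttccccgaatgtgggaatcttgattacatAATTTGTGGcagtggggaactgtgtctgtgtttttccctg
RNU1-103P: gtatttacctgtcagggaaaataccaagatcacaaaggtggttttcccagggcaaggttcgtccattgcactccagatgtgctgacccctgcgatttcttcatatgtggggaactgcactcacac
RNU1-1 lies on chromosome 1, 16514122 to 16514285, minus strand, and RNVU1-27, RNVU1-15 and RNVU1-4 lie on chromosome 1 too, on the plus strand (148522601 to 148522765, 144412576 to 144412740 and 120942600 to 120942763). RNU1-103P lies on chromosome 16, 85781775 to 85781899, minus strand, within the gene EMC8. Counted from 1 at the 5′ end of RNU1-1, RNVU1-15 carries C9T within the pairing stretch, and RNVU1-4 carries A3G, C4T and C8T there. RNVU1-27 carries G133A, the last base of the Sm site, and RNVU1-15 carries T127C and G133A there.

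Of the 20325 genes, 96 were higher in labeled than in control libraries (0.472%) and 8 were lower (0.0394%) at an adjusted p under 0.05. Before adjustment 1587 genes had a p under 0.05, and all 4 labeled libraries stood above all 4 controls in 598 genes (2.94%) and below them in 376 (1.85%). Over all 25745 genes these were 3.74% and 1.93%. The 96 genes were 26 protein-coding genes, 21 snRNAs, 12 lincRNAs, 7 antisense genes, 7 processed pseudogenes and a remainder of other types. Small nuclear RNAs were 1.45% of the genes tested and 21.9% of those higher. The median difference over all genes tested was -0.03 log2 units.

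**Figure D1:**
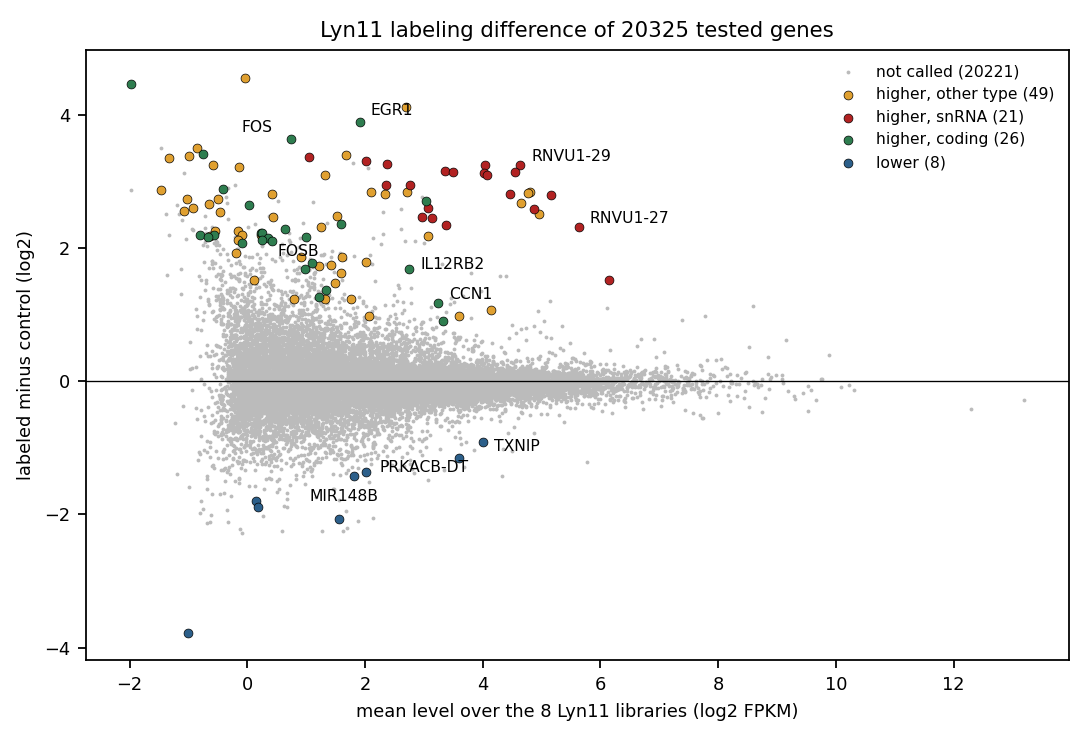
The log2 difference (labeled minus control) of each of 20325 tested genes is plotted against its mean level over the 8 Lyn11 libraries, with the 104 called genes in colour by type. The 21 snRNAs lie between 1.52 and 3.36 at levels up to 6.15, EGR1 lies at 3.90, and 8 genes lie below 0.

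The 8 libraries did not fall into the 2 groups on their main axis of variation. The first principal component held 34.8% of the variance and set labeled replicates 4 and 2 (scores 76.3 and 41.6) apart from labeled replicates 1 and 3 (-16.3 and -11.2), which lay among the controls (-54.2 to 7.48). Control replicate 1 stood apart on the second (-64.1). On the third, with 17.4% of the variance, labeled libraries (49.8, 9.14, 34.2 and -5.82 for replicates 1 to 4) all lay above the controls (-32.3 to -6.71). Labeled replicate 4 and control replicate 4 were close there. Control replicate 1 was also the highest of the 4 controls in 63 of the 96 genes that rose (65.6%, against 41.7% of all genes tested), by a median of 0.69 log2 units over the other controls. Whether this had a part in the results was not tested, but the count of higher genes was 128 without it and 13 without labeled replicates 2 and 4. Recovered totals were 21922595 to 25579291 reads in labeled and 22660476 to 34824102 in control libraries.

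U1 and variant U1 genes rose most often. Of 34 measured and tested genes, 18 were higher, where 0.472% of all genes tested were, and none was lower, and their median difference was 2.36 log2 units beside -0.03 over all genes. RNVU1-29, a gene identical to RNU1-1 (chromosome 1, 146376807 to 146376970, plus strand), had 297, 319, 269 and 321 reads in the labeled libraries and 73, 24, 27 and 24 in the controls. Every labeled library was above every control, and control replicate 1 was well above the other controls. Its difference was 3.24 ± 0.25 (SE, adjusted p = 0.000836), with 6.26 ± 0.14 log2 FPKM in labeled and 3.02 ± 0.56 in control libraries (SD, n = 4). RNVU1-27, the U1 gene of the highest mean level, had 523, 395, 443 and 396 reads against 210, 57, 75 and 81, a difference of 2.31 ± 0.28 (adjusted p = 0.00599). RNVU1-15 followed in level, with 503, 375, 352 and 284 reads against 135, 43, 39 and 42 and a difference of 2.80 ± 0.31 (adjusted p = 0.00402). RNVU1-4, of which 33 bases differ from RNU1-1, had 149, 102, 108 and 125 reads against 38, 8, 13 and 7 and rose by 3.16 ± 0.36 (adjusted p = 0.00468). In each of these, as in RNVU1-29, all 4 labeled libraries were above every control and control replicate 1 was the highest control.

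U1 genes were higher over a wide range of sequence identity. Of 8 genes identical to RNU1-1 7 were higher, and so were 11 of 26 that differ from it, down to 72.5% identity in RNVU1-22. Of 13 genes that hold both the first 11 bases and the Sm site of RNU1-1, 10 were higher (median 2.81), and of the 21 others 8 were (median 1.50). By position, of 20 U1 genes on chromosome 1, 16 were higher (median 2.81), and of 14 elsewhere 2 were, RNU1-28P on chromosome 14 and RNVU1-34 on chromosome 17 (median of the 14, 0.38). These are counts over a list chosen with the results known, and they carry no test. RNU1-103P, one of the more abundant U1 copies outside chromosome 1, had 16, 33, 20 and 48 reads in labeled and 31, 36, 47 and 23 in control libraries, which overlapped (-0.21 ± 0.34, adjusted p = 0.9998). Copies of identical or near-identical sequence share reads, and how the authors' counting split these is not given in the sources used here, so the values of single U1 genes are uncertain.

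**Figure D2:**
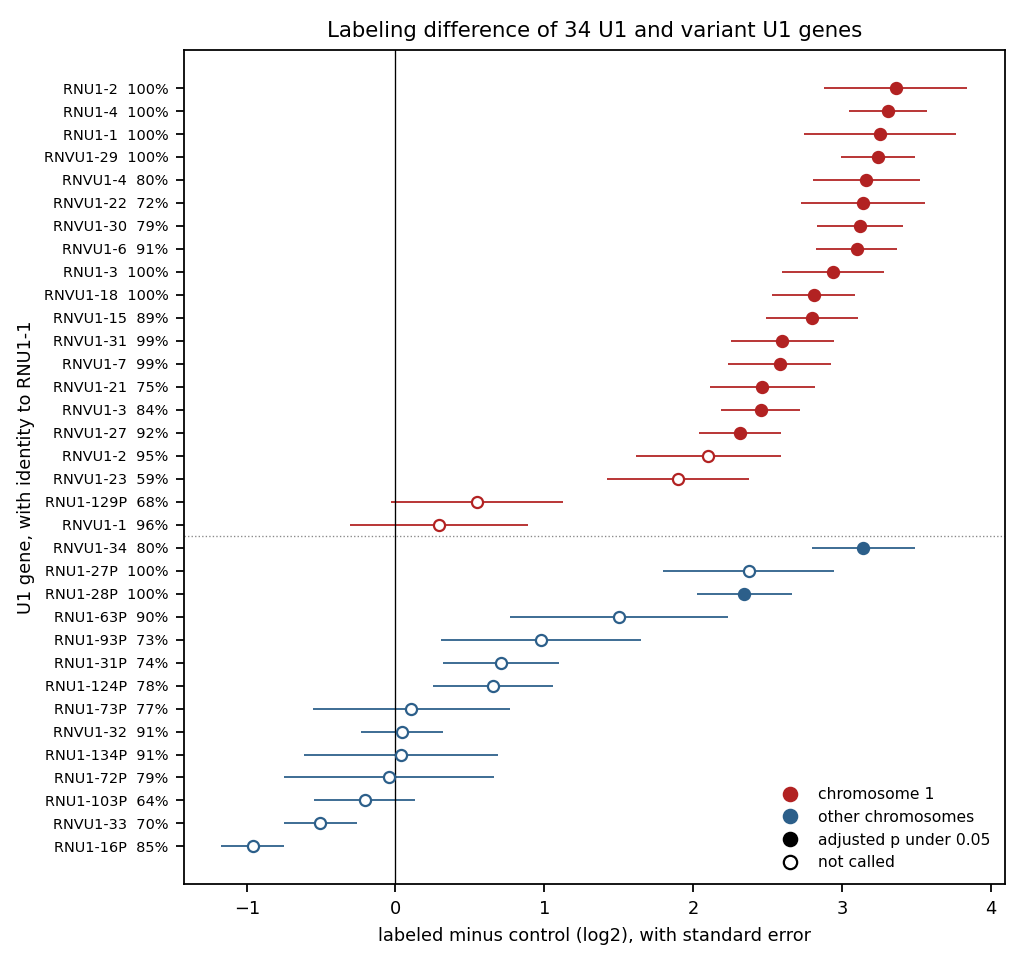
The log2 difference (labeled minus control) of each of 34 U1 and variant U1 genes is plotted with its standard error, with the percent identity to RNU1-1 beside the name, and filled points mark an adjusted p under 0.05. The 20 genes of chromosome 1 (red) hold 16 of the 18 called genes, and identity ranges from 72.5% to 100% among those called.

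The other spliceosomal RNAs were fewer and differed by family. RNU4-2 and RNU5B-1 are the called genes of the U4 and U5 families, and RNU4-2 is shown with the Sm site of U4 (AATTTTTG) in capitals.
RNU4-2: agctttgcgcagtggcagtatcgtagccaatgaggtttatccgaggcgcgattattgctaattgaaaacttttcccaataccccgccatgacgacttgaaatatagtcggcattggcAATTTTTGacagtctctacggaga
RNU4-2 (chromosome 12, 120291763 to 120291903, minus strand) had 176, 183, 197 and 131 reads in labeled and 50, 10, 14 and 14 in control libraries, and rose by 3.25 ± 0.33 (adjusted p = 0.00309). Of 16 U4 genes it alone was called, where 0.472% of all genes tested were higher, and their median difference was 0.20. That median was 0.02 without labeled replicate 4, 0.08 without control replicate 1, 0.11 without labeled replicate 2 and 0.12 without control replicate 4. RNU4-1, its nearest copy, did not overlap between groups either, at 3.27 ± 0.63 (adjusted p = 0.0621). RNU5B-1 had 109, 25, 87 and 29 reads against 13, 3, 5 and 6. Labeled replicates 1 and 3 were thus well above labeled replicates 2 and 4, the same pairs that the first principal component set apart. Its difference of 2.95 ± 0.48 (adjusted p = 0.0309) was no longer called when labeled replicate 3, or any of control replicates 2, 3 and 4, was left out (adjusted p up to 0.106). All 7 U5 genes had a difference above 0 (median 2.20), and RNU5B-1 alone was called, where 0.472% of all genes tested were higher.

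None of 8 tested U2 genes with a number in its name was called. A U2 copy annotated only as U2 on chromosome 17 (43251829), identical to the U2 reference over 191 aligned bases, had 486, 551, 590 and 582 reads against 428, 150, 170 and 156 and rose by 1.52 ± 0.24 (adjusted p = 0.0239). It was named after its values were seen. The 186 U6 genes gave no call, and their median was -0.11, with 3 genes in which all labeled libraries were above all controls and 8 in which they were below (2.94% and 1.85% of all genes tested). RNU6-141P, the U6 copy of the highest level, had 66, 114, 101 and 71 reads in labeled and 145, 43, 73 and 83 in control libraries, which overlapped. RNU4ATAC, the U4 counterpart of the minor spliceosome, had 72, 35, 48 and 21 reads against 23, 4, 6 and 6, a difference of 2.28 ± 0.43 that did not pass (adjusted p = 0.0598). ENSG00000270022, a noncoding gene that overlaps RNU12 (U12, a minor spliceosome RNA) on the same strand, had 442, 452, 336 and 520 reads against 85, 10, 24 and 19 and rose by 4.12 ± 0.44 (adjusted p = 0.00362).

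U3, the small nucleolar RNA that guides the first cuts of ribosomal RNA, was higher in 3 of 9 copies, where 0.472% of all genes tested were. SNORD3C had 161, 190, 158 and 251 reads against 66, 17, 25 and 19 and rose by 2.82 ± 0.31 (adjusted p = 0.00402). SNORD3B-2 had the largest counts, with 1120, 1500, 1369 and 1715 reads against 804, 166, 211 and 165, and rose by 2.52 ± 0.37 (adjusted p = 0.0181). Control replicate 1 thus reached 804 reads, far above any other control. SNORD3B-2 and SNORD3B-1 (2.19 ± 0.39, adjusted p = 0.0474) lost the call in 6 and 7 of the 8 fits without 1 library, adjusted p reaching 0.0831 and 0.16, namely labeled replicates 2, 3 and 4 and control replicates 2, 3 and 4 for both and labeled replicate 1 for SNORD3B-1. ENSG00000262202, which overlaps another U3 copy, SNORD3D, rose by 2.67 ± 0.36 (adjusted p = 0.0117). None of 145 other snoRNA and scaRNA genes was called, and their median was 0.05. All labeled libraries were above all controls in 8 of them and below in 1 (2.94% and 1.85% of all genes tested).

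Reads were also summed over the measured annotated copies of each family, so that the split between these copies no longer enters. Genes that only overlap a copy, such as ENSG00000276216 and ENSG00000262202, stayed outside the sums, and whether the authors dropped reads that map to several copies is not stated. Summed U1 reads were 153, 142, 128 and 141 RPM (reads scaled by the library size behind the authors' FPKM) in the labeled libraries and 40.9, 21.1, 23.5 and 21.7 in the controls. Summed U3 reads were 117 ± 5.89 RPM in labeled and 31.5 ± 17.2 in control libraries (SD, n = 4), summed U2 reads 31.5 ± 1.32 and 13.9 ± 3.75, and summed U4 reads 18.3 ± 0.96 and 9.71 ± 0.44. In these 4 families no labeled library overlapped a control. Summed U5 reads were 27.6, 5.52, 16.6 and 4.82 RPM in labeled libraries, widely spread but all above the controls (1.63 to 3.77). Summed U6 (95.0, 107.7, 104.3 and 93.1 against 83.8, 102.7, 104.8 and 127), 7SK (54.7 ± 9.98 against 53.7 ± 4.04), Y RNA (93.8 ± 5.12 against 101.5 ± 13.9), 5S rRNA (41.9 ± 8.07 against 42.3 ± 3.04) and U7 (11.6 ± 0.88 against 11.7 ± 1.72) overlapped. 7SL, which forms the core of the signal recognition particle, was the most abundant family here, at 2539, 3321, 2775 and 3911 RPM in labeled and 4928, 3597, 3420 and 2957 in control libraries, and overlapped as well. These sums carry no test.

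**Figure D3:**
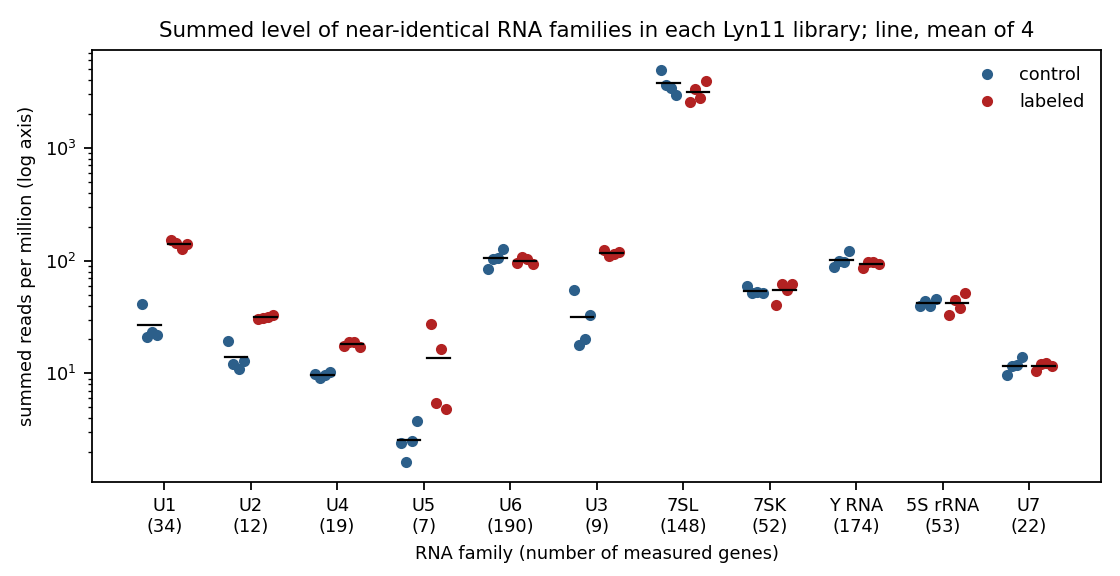
Summed RPM (log axis) of 11 RNA families are plotted for each Lyn11 library, with the mean of 4 as a line and the number of measured genes in brackets. Labeled libraries (red) lie above controls (blue) for U1, U2, U4, U5 and U3, and overlap them for U6, 7SL, 7SK, Y RNA, 5S rRNA and U7.

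Of the immediate early transcription factors 3 were called, and EGR1 and FOS had the largest differences among called coding genes of the lists. EGR1, a zinc finger factor (chromosome 5, 138465490 to 138469315, plus strand), had 1345, 884, 1178 and 1019 reads in labeled libraries and 119, 56, 84 and 62 in controls. It rose by 3.90 ± 0.21 (adjusted p = 7.88e-05), from -0.04 ± 0.30 to 3.86 ± 0.28 log2 FPKM (SD, n = 4). FOS, a subunit of the AP-1 factor, had 414, 438, 496 and 483 reads against 81, 28, 23 and 39 and rose by 3.64 ± 0.30 (adjusted p = 0.00102). FOSB, which also forms AP-1 and overlaps ERCC1 on the opposite strand, had 308, 301, 453 and 392 reads against 155, 77, 59 and 74. It rose by 2.15 ± 0.29 (adjusted p = 0.0103), and lost the call without labeled replicate 3 (adjusted p = 0.0554). EGR1 and FOS were called in each of 23 alternatives in which they were tested. The filter on all 8 libraries removed them, since EGR1 controls ran down to -0.35 log2 FPKM and all FOS controls lay below 0 (-1.73 to -0.30). All FOSB controls lay below 0 too (-1.20 to -0.15). FOS and FOSB thus passed the filter for testing through their labeled libraries alone, and their place among the tested genes depends on their rise.

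Of 33 measured genes of the list 27 were tested and those 3 were called higher, where 0.472% of all genes tested were. The median difference was 0.34 beside -0.03 over all genes, and it was 0.21 without labeled replicate 4 and 0.21 without control replicate 4. JUN, the partner of FOS, was far more abundant (6.68 log2 FPKM on average, per length) and had 9869, 10214, 10942 and 12666 reads against 9394, 7996, 6590 and 6349. At log2 FPKM its labeled libraries (6.87 to 7.25) were all above its controls (6.22 to 6.60), yet the difference of 0.63 ± 0.16 did not pass (adjusted p = 0.149). IER2 and ATF3, at 0.64 ± 0.21 and 0.48 ± 0.15, did not overlap between groups either and did not pass (adjusted p = 0.361 and 0.305). All labeled libraries were thus above all controls in 6 of the 27 and below them in 5 (2.94% and 1.85% of all genes tested). None of the 5 was called, among them HES1 at -0.46 ± 0.16 and BHLHE40 at -0.43 ± 0.16 (adjusted p = 0.413 and 0.485). The list thus held members on both sides of 0, with 19 of 27 above.

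The promoter of EGR1 is shown because EGR1 had the lowest adjusted p of all genes and because CArG boxes, which bind serum response factor, are known elements of early gene promoters. The 250 bases before its RefSeq start (GRCh38.p14, chr5:138465229-138465478, plus strand) hold 2 of them, in capitals, which begin 105 and 83 bases before the start.
EGR1 promoter: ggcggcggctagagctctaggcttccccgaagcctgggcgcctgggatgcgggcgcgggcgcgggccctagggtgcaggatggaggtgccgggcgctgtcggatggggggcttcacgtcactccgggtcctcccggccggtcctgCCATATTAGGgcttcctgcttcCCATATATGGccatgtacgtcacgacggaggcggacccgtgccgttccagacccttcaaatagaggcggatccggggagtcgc
Among 11078 tested genes with a promoter in the RefSeq table, counted over 300 bases (250 before to 50 after the start), 162 (1.46%) held a CArG box on either strand, a motif that reads the same on both. Of the 23 coding genes called higher that have one, EGR1 and ACTA1 held it, and the windows of FOS and FOSB did not. A match describes these letters in this window and is neither a site nor a cause.

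A list of further early genes, drawn up mainly for products that damp the response, gave no call among 30 tested genes. In 7 of them all labeled libraries were above all controls, with 0 the other way (2.94% and 1.85% of all genes tested). A difference above 0 was found in 25 (median 0.20). The largest was SGK1, a serum-induced kinase, at 1.41 ± 0.29 (adjusted p = 0.0754), then ARC at 1.19 ± 0.33, GADD45B at 1.04 ± 0.23 and PLK2 at 0.90 ± 0.24 (adjusted p = 0.233, 0.106 and 0.186). DUSP1, a phosphatase that ends MAP kinase signalling, had 2365, 1850, 1985 and 1706 reads against 2411, 1160, 1132 and 780, and the groups overlapped (0.74 ± 0.24, adjusted p = 0.339). Of 18 tested targets of SRF and YAP 1 was called, where 0.472% of all genes tested were higher. It was CCN1, a secreted matrix protein that also behaves as an early gene. It had 810, 887, 918 and 740 reads against 558, 373, 355 and 330 and rose by 1.17 ± 0.14 (adjusted p = 0.00604). CCN2, its relative, stood at 0.77 ± 0.23 (adjusted p = 0.274).

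**Figure D4:**
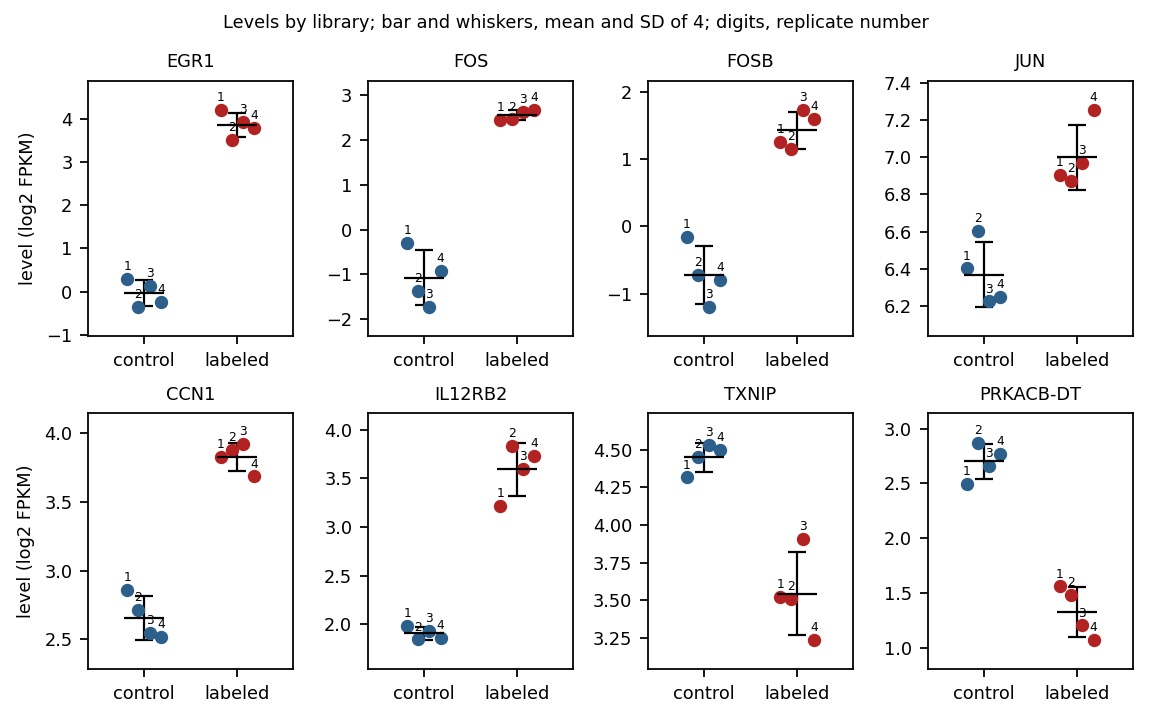
Levels in log2 FPKM are plotted for 8 genes in each of 4 control (blue) and 4 labeled (red) libraries, numbered by replicate, with mean and SD. Labeled libraries lie above controls for EGR1, FOS, FOSB, JUN, CCN1 and IL12RB2 and below them for TXNIP and PRKACB-DT, and JUN did not pass the test.

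The coding genes that rose were mostly scarce. Of 26, 16 had a mean under 1 log2 FPKM (61.5%, against 13.2% of tested coding genes). Beside EGR1 and CCN1 the more abundant ones were ACP4, SMIM47, CD74, PLAC9, IL12RB2, SLC10A1, ALDH8A1 and MYLIP. IL12RB2, a subunit of the interleukin-12 receptor, had 914, 1487, 1261 and 1314 reads against 525, 353, 401 and 363 and rose by 1.68 ± 0.17 (adjusted p = 0.00243), a call kept in each of 24 alternatives. ACP4, a testicular acid phosphatase, had 454, 857, 560 and 984 reads against 214, 121, 79 and 71, higher in labeled replicates 2 and 4 than in 1 and 3 (2.71 ± 0.32, adjusted p = 0.00554). SMIM47, a small membrane protein gene on the opposite strand, overlaps it and rose too (2.37 ± 0.28, adjusted p = 0.00599), as did ENSG00000268375, a noncoding gene inside ACP4 that overlaps the end of SMIM47, so that reads of these 3 genes on chromosome 19 cannot be told apart. SLC10A1, the bile acid transporter of liver cells, had 191, 223, 219 and 170 reads against 92, 74, 82 and 80 and rose by 1.37 ± 0.17 (adjusted p = 0.00773), a call lost without labeled replicate 2 (adjusted p = 0.0515).

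CD74, the invariant chain of MHC class II, had 175, 424, 285 and 511 reads against 124, 58, 80 and 57 (2.16 ± 0.34, adjusted p = 0.0239). PLAC9 (1.78 ± 0.32), ALDH8A1 (1.27 ± 0.22) and MYLIP (0.91 ± 0.17), an E3 ligase that degrades the LDL receptor, had adjusted p of 0.0495, 0.0404 and 0.0495. CD74 and PLAC9 each lost the call without any 1 of labeled replicates 2, 3 and 4 or control replicates 2, 3 and 4 (adjusted p up to 0.11 and 0.172), and ALDH8A1 and MYLIP without those or control replicate 1 (up to 0.172 and 0.181).

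Of the 26, 9 (34.6%) begin within 20 kb downstream, on the same strand, of a gene with a mean of at least 3 log2 FPKM, against 15.1% of tested coding genes. Over all types it was 27 of 96 (28.1%) against 13.4%. The upstream genes named here were not called. SPEF1, a cilium protein gene, rose by 2.89 ± 0.51 and lies 2403 bases beyond CENPB, which stood at 0.11, and ACTA1, skeletal muscle actin, rose by 2.65 ± 0.48 and lies 6162 bases beyond NUP133, which stood at -0.05. BGLAP and VHLL likewise rose by 2.11 ± 0.38 and 2.23 ± 0.39, downstream of PMF1 at 0.17 and CCT3 at 0.04. In SPEF1 the labeled reads were 40, 147, 83 and 154 against 29, 6, 14 and 9, again highest in labeled replicates 2 and 4. Labeled replicate 2 was the highest labeled library in 33 of the 96 genes that rose (34.4%, against 16.7% of all genes tested), and labeled replicate 4 in 40 (41.7%, against 31.5%). These 4 genes were named after their values were seen. Their adjusted p was 0.0455 (SPEF1), 0.0495 (ACTA1), 0.0495 (BGLAP) and 0.0448 (VHLL), and their calls held in 11, 13, 10 and 10 of 23 alternatives.

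Among long noncoding genes the largest rises by the rule were HM13-AS1, TRPC7-AS1, SNHG12 and THUMPD3-AS1. HM13-AS1, antisense to HM13, had 43, 133, 54 and 163 reads against 8, 9, 5 and 20 and rose by 3.09 ± 0.50 (adjusted p = 0.0307). SNHG12, which hosts several snoRNAs, had 2142, 2243, 1756 and 2160 reads against 1512, 1047, 1011 and 767 and rose by 1.06 ± 0.17 (adjusted p = 0.0239). It was the only 1 of 24 tested snoRNA host genes called, where 0.472% of all genes tested were higher. Of the 24, 18 had a difference above 0 (median 0.17). All labeled libraries were above all controls in 4 of them and below in 0 (2.94% and 1.85% of all genes tested). THUMPD3-AS1 rose by 0.98 ± 0.14 (adjusted p = 0.0155) on 2136 to 2739 reads against 1265 to 1569. HM13-AS1, TRPC7-AS1 (1.63 ± 0.27), SNHG12 and THUMPD3-AS1 were all no longer called when labeled replicate 2, labeled replicate 4 or control replicate 3 was left out, with adjusted p up to 0.118, 0.14, 0.11 and 0.0968. Further losses came without labeled replicate 3 (all but SNHG12), control replicate 2 (all but THUMPD3-AS1), control replicate 4 (TRPC7-AS1 and SNHG12) and control replicate 1 (HM13-AS1). Short or single-exon genes were common, since 26 of the 96 genes were at most 300 bases long (27.1%, against 8.32% of tested genes) and 48 had 1 exon (50%, against 23.0%).

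Of 3 microRNA genes that rose, MIR5087 and MIR6077 lie beside U1 genes on chromosome 1. The third, MIR548A3, does not lie beside one and rose by 2.31 ± 0.39 (adjusted p = 0.0389) on 9, 16, 7 and 15 reads against 0, 2, 1 and 3, a call kept in 11 of 23 alternatives. The mature sequences of MIR5087 and MIR6077 from RefSeq (GRCh38.p14) are shown with the seed, bases 2 to 8, in capitals.
hsa-miR-5087: gGGUUUGUagcuuugcuggcaug
hsa-miR-6077: gGGAAGAGcuguacggccuuc
Their seeds differ. The hairpin of MIR5087 (148334479 to 148334554, minus strand) begins 58 bases downstream of RNVU1-21, and that of MIR6077 (148388282 to 148388363, plus strand) lies 127 bases downstream of RNVU1-2, on the opposite strand. MIR5087 had 118, 146, 148 and 131 reads against 44, 12, 17 and 14 and rose by 2.85 ± 0.26 (adjusted p = 0.00162), where RNVU1-21 rose by 2.47 ± 0.35. MIR6077 rose by 2.85 ± 0.36 (adjusted p = 0.00811), where RNVU1-2 stood at 2.10 ± 0.49 and did not pass (adjusted p = 0.124). The counts are of reads over the hairpin gene, and mature microRNA was not measured apart from them.

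Among all 19430 tested genes other than snRNA, snoRNA, scaRNA and miscellaneous RNA genes, 3 held at least 50 bases at 85% or more identity to U1, and 1 was called, ENSG00000276216 (2.83 ± 0.31), which overlaps the U1 variant RNVU1-14. Likewise 1 of 2 genes with such a match to U3 and the 1 gene with a match to U12 were called, the ones named above. Genes with a match to U6 (10), 7SK (4), U2 (2), U4 (2) or U5 (1) held no call. Genes with a match to 7SL numbered 2422, of which 5 were called higher and 1 lower, where 0.472% and 0.0394% of all genes tested were.

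The 8 genes that fell were TXNIP, a copy of DHRSX and 6 noncoding genes. TXNIP, which binds thioredoxin and restrains glucose uptake (chromosome 1, 145992435 to 145996600), had 970, 1014, 1341 and 800 reads in labeled libraries and 2265, 1849, 2087 and 1937 in controls. It fell by 0.91 ± 0.16 (adjusted p = 0.0448), and lost the call in 6 of 8 fits without 1 library, namely labeled replicates 1, 2 and 4 and control replicates 2, 3 and 4 (adjusted p up to 0.173). The 10 genes of its list are targets of the glucose sensor MondoA or partners of TXNIP. No other of them was called, where 0.0394% of all genes tested were lower, and the median was -0.02. PRKACB-DT, a noncoding transcript divergent from the kinase gene PRKACB, had 109, 109, 90 and 78 reads against 282, 271, 251 and 257, fell by 1.37 ± 0.18 (adjusted p = 0.00871), and kept the call in 22 of 24 alternatives. RNA5SP221, a 5S pseudogene opposite ADAT2, fell by 1.15 ± 0.17 (adjusted p = 0.0165), a call lost without labeled replicate 2 or 3 or control replicate 2, 3 or 4 (adjusted p up to 0.0966). MIR148B, inside COPZ1, fell by 1.43 ± 0.26 (adjusted p = 0.0496) on 3, 3, 4 and 6 reads against 20, 15, 8 and 13, and lost the call in 6 of 8 such fits (labeled replicates 1 to 3 and control replicates 1, 2 and 4, adjusted p up to 0.172). The others, outside the rule for named genes, were RN7SL684P (-1.79 ± 0.31), ENSG00000256196 (-1.88 ± 0.34), ENSG00000270933 (-2.08 ± 0.35) and the chromosome Y entry of the pseudoautosomal gene DHRSX. The last had the largest fall, at -3.77 ± 0.39 (adjusted p = 0.0033), at a mean of -1.01 log2 FPKM, and reads of near-identical copies cannot be told apart.

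Gene lists of the membrane and of stress gave no call, where 0.512% of all genes tested were called in either direction, so that a list of this size would hold few or none at that share. There was none in 27 tested plasma membrane transporters and pumps (median 0.03), 33 adhesion and receptor genes (0.08), 31 lipid-anchored kinases and G proteins of the inner leaflet (-0.002), 11 mRNAs that localize to protrusions (-0.06) and 22 actin and focal adhesion genes (-0.02). Examples were BSG, RHOA, CDC42 and ACTR2, whose levels in labeled and control libraries overlapped. In the inner leaflet list 1 gene of 31, GNAI3, a G protein subunit, had all labeled libraries above all controls (0.25 ± 0.14, adjusted p = 0.879). Differences in this list ran up to 2.49 in a gene whose groups overlapped. In the protrusion list 1 gene of 11, DYNLL2, had all labeled libraries above all controls (0.36 ± 0.15, adjusted p = 0.515), as had 2.94% of all genes tested. The mRNAs of NRF2 targets (22 tested, -0.03), the integrated stress response (22, -0.07), cytosolic heat shock (15, 0.02), endoplasmic reticulum chaperones and the translocon (27, 0.05), cytosolic ribosomal proteins (80, -0.04), translation factors (25, -0.08), snRNP proteins (23, -0.02), SR proteins and CLK kinases (16, 0.002), nuclear long noncoding RNAs (11, -0.18), oxidative phosphorylation (90, -0.07) and histones (54, -0.13) had none either. Nor had 26 tested mitochondrially encoded genes, whose median was 0.34. In 4 of these 26, MT-TS2, MT-ND6, MT-TR and MT-TG, all labeled libraries were above all controls (1.58 ± 0.30, 1.13 ± 0.25, 1.10 ± 0.23 and 0.83 ± 0.21, adjusted p = 0.0608, 0.101, 0.0864 and 0.157). Among the 80 ribosomal protein genes this held for 3, RPS9, RPL3L and RPS10 (1.10 ± 0.27, 1.00 ± 0.26 and 0.53 ± 0.18, adjusted p = 0.147, 0.173 and 0.383), a share near the 2.94% of all genes tested. HEXIM1, the inhibitor of the elongation kinase P-TEFb, stood at 0.79 ± 0.17 (adjusted p = 0.0914).

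Whether these differences are those of Lyn11 in particular was tested against the other constructs, whose controls are separate libraries. The difference of Lck, also anchored in the inner leaflet, was subtracted from that of Lyn11 in a fit of the 14 libraries of both. No gene of 21332 was called (0%), with 436 at an unadjusted p under 0.05 and a lowest adjusted p of 0.999. Against the mean difference of Lck, CD28 and PDGFR no gene of 22284 was called (0%), with 351 at an unadjusted p under 0.05. For EGR1 the Lyn11 minus Lck contrast was -0.51 ± 0.28, for FOS -0.46 ± 0.52, for RNVU1-29 0.31 ± 0.41 and for TXNIP 0.10 ± 0.19 (limma, adjusted p = 0.999 in each). These intervals do not show that the constructs act alike. Fitted alone, the Lck libraries had a difference above 0 in all 96 genes that rose with Lyn11 (median 2.62), CD28 libraries in 92 (1.70) and PDGFR libraries in 93 (2.13), where 42.5%, 53.8% and 52.8% of all genes tested were above 0. All 8 genes that fell were below 0 with Lck and PDGFR, and 7 of them with CD28. These counts are of direction alone and carry no test. EGR1 stood at 4.41 with Lck (limma, adjusted p = 0.000171). With CD28 and PDGFR it stood at 2.09 and 1.95 and did not pass (limma, adjusted p = 0.742 and 0.424).

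**Figure D5:**
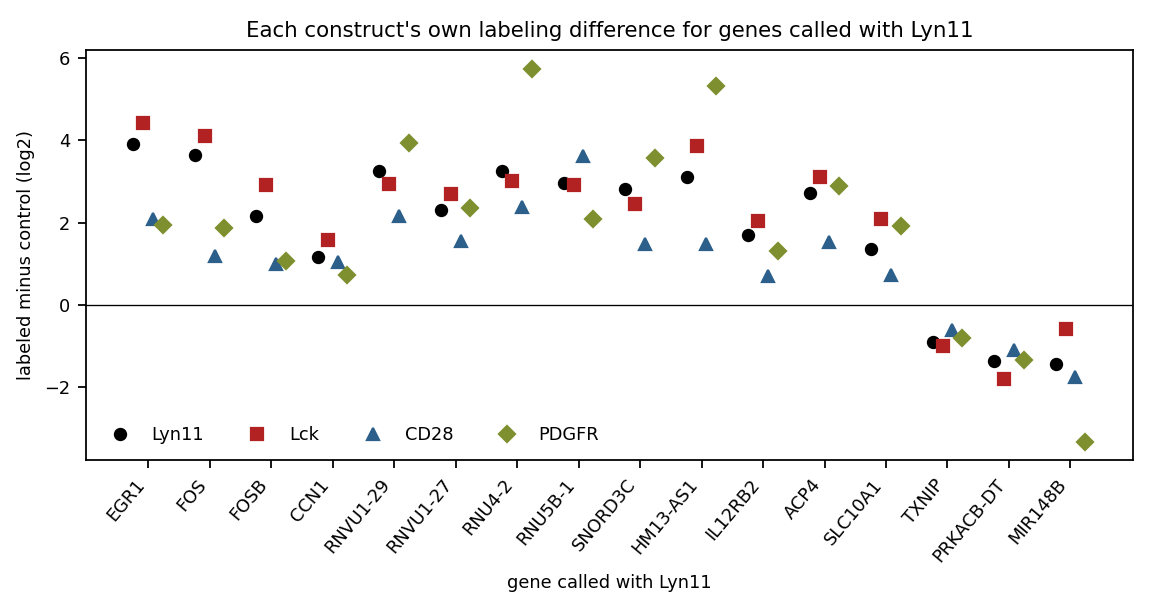
Each construct's own log2 difference (labeled minus control) is plotted for 16 genes called with Lyn11, fitted on that construct's libraries alone. The 13 genes that rose with Lyn11 lie above 0 with each construct and the 3 that fell lie below 0.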

How the data were processed

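RNA pulled down on streptavidin from 8 HEK293T libraries was compared, 4 labeled and 4 control, grouped by title. The authors deposited 1 matrix of log2 FPKM. The genome build was hg38 and the tools HISAT2 2.1.0 and edgeR (no version), per the submitters' processing notes, and strandedness and counting rules are not given in the sources used here. The deposited log2 values already carry a prior count of about 1.00 read. Undoing it gave whole reads, within 0.05, for 99.997% of values, so reads per library are printed. Identifiers were matched to GENCODE 29 (24075 with version, 1579 without, 91 not). The prior count understates the differences of genes with few reads.

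Genes with log2 above 0 in at least 3 of the 8 libraries entered a limma fit (version 3.58.1, R 4.3.3) of the deposited log2 values, with a mean for each group and an intensity trend (6 residual and 10.19 total degrees of freedom), two-sided, with Benjamini-Hochberg adjustment over all tested genes and calls at 0.05. Every adjusted p comes from limma. Errors are standard errors unless SD is written. Pairs of replicates differed by a chi-square of 7.93 to 88.3 per gene, so none was a duplicate. U RNA copies were aligned with Biopython 1.88 and searched with blastn 2.17.0. Named genes were called genes that have a symbol, groups that do not overlap and a mean log2 of 1 or more (the 15 largest and smallest, 10 coding, 5 long noncoding), called members of 36 gene lists, and the 4 members of the highest level in each list. The members and lists were chosen with earlier results of these data known. Alternatives were other sets of libraries, filters, pseudocounts, scalings, moderation, weights, a limma voom fit on recovered reads, a replicate block and leaving out libraries. A few items withheld for evaluation are not reported here.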

Additional observations from a re-analysis of the deposited data

Results flagged for a closer look

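Dixon's test at its 95% critical value was run on 116 groups of 4 values and set 8 values apart. The groups were each called named gene and each summed family, in labeled and in control libraries. Chance gives about 1 in 20 groups, so several would be set apart by chance. Control replicate 1 accounted for 5 of the 8, which are not independent, since RNVU1-29 and RNVU1-15 are part of the summed U1 reads. It stood at 3.86 log2 FPKM for RNVU1-29 (other controls 2.70 to 2.79), at 4.72 for RNVU1-15 (3.29 to 3.53) and at 5.02 for SNORD3B-2 (3.15 to 3.43), and its summed reads were 40.9 RPM for U1 (21.1 to 23.5) and 59.7 for 7SK (51.2 to 52.3). Control replicate 4 stood at 3.94 RPM for the U4atac genes summed (2.32 to 2.58). Control replicate 2 stood low at 0.37 log2 FPKM for ALDH8A1 (0.63 to 0.68), and labeled replicate 3 low at 4.40 for SNHG12 (4.75 to 4.77).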

How the results depend on the processing

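All 104 called genes kept their direction in every alternative in which they were tested. This is no test of stability, since the groups of these genes did not overlap and leaving out libraries could not reverse them. Several other alternatives reuse the same group means. The call was kept in each alternative tested by 10 genes (EGR1, FOS, IL12RB2, RNU1-4, RNVU1-29, RNVU1-3, RNVU1-6, RNVU1-30, RNVU1-34 and ENSG00000225761), while 18 were called in under 12 of 24. The counts moved more. With 96 higher and 8 lower as reported, they were 265 and 55 with the spread taken from 14 libraries of the inside constructs, 174 and 13 without a filter on low values, 39 and 4 with log2 above 0 in all 8 libraries, 130 and 14 without the intensity trend, 91 and 4 with limma voom on library totals, and 1455 and 1265 with library quality weights, which ran from 0.33 (labeled replicate 1) to 7.77 (control replicate 3). The cause was not tested. Leaving out 1 library gave 34 to 128 higher and 2 to 14 lower, 14 to 19 U1 genes, 1 to 3 U3 genes and 2 to 3 early transcription factors. Chosen after seeing the data, leaving out labeled replicates 2 and 4 together gave 13 higher and 2 lower, 6 U1 and 1 U3 genes and a U4 list median of -0.0494, and leaving out labeled replicates 1 and 3 together gave 77 higher and 28 lower with 1 U3 gene. The strict filter left 0 early transcription factors, quality weights 12 of them and 5 U3 genes, and the median of SRF and YAP targets ran from -0.00864 (without control replicate 4, a change of sign) to 0.154 over the fits without 1 library. The replicate block gave 24 higher and 1 lower, 11 U1 and 0 U3 genes. Whether equal numbers mark paired libraries could not be settled. Same-numbered deviations correlated at 0.077, 0.19, 0.16 and -0.32. Only labeled replicate 2 and control replicate 3 correlated best with their own number in the other group. Such correlations cannot exclude a pairing. The contrasts with other constructs stayed at 0 calls in every alternative run. Low reads limit the scarce genes, of which 41 of 96 that rose had a mean under 1.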
